A study of Mus musculus with 12 samples.

Results

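The 35 genes described here are the cell cycle and DNA replication genes of a mouse RNA-seq series, taken from a deposited table of 52550 genes by their symbols. All 35 had enough reads to be tested, among 17700 genes that passed the filter on low counts. By textbook role they were divided into 16 S phase genes, 16 mitosis genes and the 3 D cyclins. The S phase genes act at entry into S phase (Ccne1, Ccne2, Cdk2, E2f1), in origin licensing and the replicative helicase (Cdc6, Cdt1, Cdc45, Mcm2 to Mcm7), and as clamp or in nucleotide supply (Pcna, Rrm2, Tyms). The mitosis genes encode cyclins, their kinase and a factor (Ccna2, Ccnb1, Ccnb2, Cdk1, Foxm1), further kinases with their checkpoint and passenger partners (Aurka, Aurkb, Bub1, Plk1, Birc5), chromosome and spindle proteins (Top2a, Mki67, Cenpf, Kif11), and parts of the machinery that destroys mitotic proteins (Cdc20, Ube2c).

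The series held 12 libraries in 4 groups of 3 that the submitters call biologically independent, all from mice labelled WT. The labels state no age, sex or strain. Cells were isolated from intestinal muscle layers, with no sorting or gating stated, and kept for 28 days. The P plate group was kept on well plates in DMEM with 10% FBS and ABAM, an antibiotic and antimycotic mix. The labels name this the proliferation medium. The M plate group was kept on well plates in Advanced DMEM/Ham's F-12 with N2, B27 without vitamin A, N-acetylcysteine, HEPES, GlutaMAX, ABAM, Y27632 at 10 µM, Noggin at 100 ng/ml and R-spondin1 at 1 µg/ml. Noggin binds and blocks BMP ligands, and R-spondin1 strengthens Wnt signalling. The labels name this the differentiation medium, and its listed contents include no serum. In the M scaffold group that medium was used on a scaffold of electrospun gelatin. The strips group was native intestinal muscle, the positive control of the study. Their labels name the same cell source and Day 28 as those of the cultures, while their titles say muscle strips, and they were grouped by title.

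Gene counts per library ran from 21396485 to 116643512, and values are given in CPM, which scales counts to a common library size, with TMM factors from 0.893 to 1.15. A count of 0 would have allowed up to 3 counts, or 0.0270 to 0.125 CPM, and no member was at 0 in any library. The summed CPM of 6 smooth muscle markers (Acta2, Myh11, Tagln, Cnn1, Des, Actg2) was 32961 to 34252 in strips and 2604 to 10518 in the cultures. P plate replicate 1 stood apart with a macrophage marker sum of 16388 CPM, against 3000 and 1867 in the other P plate libraries and 121 to 164 in strips. P-values measure the spread between these samples, and whether the replicates came from separate mice is not given. In the main fit the spread of a gene was estimated over all 12 libraries together. P-values, standard errors and intervals of comparisons without P plate therefore also carry the P plate spread, which was the widest for the mitosis genes.

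A cell passes from G1 into S phase when D and E cyclins with their kinases release E2F factors from pocket proteins such as Rb. Licensing factors load the MCM helicase on origins in G1, and the loaded helicase is fired in S phase. The mitotic genes are switched on later, in G2, by a complex of B-MYB, MuvB and FOXM1 that sits on a short promoter word named CHR. In resting cells the DREAM complex holds both sets of genes down. In the wall of the adult gut most smooth muscle cells are at rest, whereas isolated cells commonly divide when placed in serum.

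Promoter windows from the RefSeq table of build GRCm38.p6 show the difference between the roles at the level of the sequence, and 28 of the 35 members had an entry (30 windows, since Mcm7 and Ccnd3 had 2 each). A window runs from 250 bases before to 50 after the start. The E2F words searched were TTCCCGC, its variant TTCGCGC, the variant TTGCCGC and the variant TTGGCGC, the CHR words were TTTGAA and TTCGAA, and the third word was CCAAT, all on either strand. The reverse of TTGGCGC shares letters with CCAAT, so a single stretch can hold both. The 6 windows printed here are 3 of mitosis genes, 2 of helicase genes and 1 that holds no word. They read 5′ to 3′ on the strand of the gene, and capitals mark every match.
Cdc20 (chr4:118437294-118437593, minus strand): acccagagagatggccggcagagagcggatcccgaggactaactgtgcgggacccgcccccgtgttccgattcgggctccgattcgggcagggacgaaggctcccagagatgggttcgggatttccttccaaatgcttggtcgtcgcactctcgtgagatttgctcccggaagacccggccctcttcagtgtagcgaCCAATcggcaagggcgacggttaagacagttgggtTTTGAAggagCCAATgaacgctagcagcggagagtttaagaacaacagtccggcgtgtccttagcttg
Ccnb2 (chr9:70421505-70421804, minus strand): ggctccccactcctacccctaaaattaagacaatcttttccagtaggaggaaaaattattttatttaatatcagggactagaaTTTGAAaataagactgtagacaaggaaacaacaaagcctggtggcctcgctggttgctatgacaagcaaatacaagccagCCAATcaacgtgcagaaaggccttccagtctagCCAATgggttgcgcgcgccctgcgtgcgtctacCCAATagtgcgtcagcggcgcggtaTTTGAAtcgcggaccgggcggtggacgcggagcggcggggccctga
Top2a (chr11:99024140-99024439, minus strand): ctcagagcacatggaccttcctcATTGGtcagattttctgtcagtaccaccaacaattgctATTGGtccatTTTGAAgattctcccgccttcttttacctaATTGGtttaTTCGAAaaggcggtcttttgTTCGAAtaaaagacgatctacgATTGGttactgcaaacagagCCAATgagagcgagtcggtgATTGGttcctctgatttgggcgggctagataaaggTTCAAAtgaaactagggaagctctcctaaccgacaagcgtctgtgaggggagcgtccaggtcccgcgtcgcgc
Mcm5 (chr8:75109259-75109558, plus strand): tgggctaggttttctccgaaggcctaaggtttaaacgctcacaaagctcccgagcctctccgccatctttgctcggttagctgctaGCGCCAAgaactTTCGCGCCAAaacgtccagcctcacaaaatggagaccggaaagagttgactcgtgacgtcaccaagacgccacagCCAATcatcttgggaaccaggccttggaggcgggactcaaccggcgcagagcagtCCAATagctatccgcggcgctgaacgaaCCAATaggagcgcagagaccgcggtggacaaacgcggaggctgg
Mcm6 (chr1:128359656-128359955, minus strand): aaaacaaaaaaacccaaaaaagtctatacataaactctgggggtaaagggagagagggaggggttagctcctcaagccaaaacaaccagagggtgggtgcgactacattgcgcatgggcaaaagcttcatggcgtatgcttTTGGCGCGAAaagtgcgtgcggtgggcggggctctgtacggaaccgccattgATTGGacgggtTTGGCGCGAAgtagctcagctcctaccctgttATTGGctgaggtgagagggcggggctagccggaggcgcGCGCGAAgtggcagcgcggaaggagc
Ccne1 (chr7:38107441-38107740, minus strand): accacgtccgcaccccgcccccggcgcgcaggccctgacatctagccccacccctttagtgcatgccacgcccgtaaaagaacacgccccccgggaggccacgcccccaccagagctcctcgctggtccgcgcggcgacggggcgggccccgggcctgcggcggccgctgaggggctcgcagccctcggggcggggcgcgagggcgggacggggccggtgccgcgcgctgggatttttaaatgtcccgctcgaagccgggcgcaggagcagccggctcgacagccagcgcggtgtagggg

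Both a CHR word and CCAAT stood in 11 of the 13 windows of mitosis genes (84.6%), against 7.53% of 32851 windows of all genes. In S phase genes 3 of 15 windows (20%) held both. CCAAT by itself or with other words stood in 12 of the 13 windows of mitosis genes (92.3%). It also stood in 10 of the 15 windows of S phase genes (66.7%), against 37.4% of all windows. In the Cdc20 window a CHR word lay at -18, between CCAAT words at -53 and -8, counted by the first base of a word with the start at 1. The Ccnb2 window held CCAAT at -87, -54 and -21. The exceptions among the mitosis genes were Ccnb1, with CCAAT and no CHR word, and Birc5, with neither.

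E2F words stood in 9 of the 15 windows of S phase genes (60%), against 3 of 13 among mitosis genes (23.1%) and 9.57% of all windows. The 15 windows belong to 14 genes, and both windows of Mcm7 are among the 9. The Mcm6 window held 5 E2F words, among them overlapping pairs that begin at -109 and -106 and at -46 and -43. The Mcm5 window held 3. The windows of Ccne1, E2f1 and Tyms held none of the words. Mean GC content was 60.3% in windows of mitosis genes, 60.9% in those of S phase genes and 53.8% in all windows. The start used in 24 of the 30 windows lay within 100 bases of the 5′ end of the gene in GENCODE. The remaining starts lay inside the gene. They were 466 bases in for E2f1, 350 for Cdc6, 134 for Pcna, 1156 and 539 for Mcm7 and 88416 for the second Ccnd3 window. A match is a description of letters and not a test of binding.

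All 16 mitosis genes were lower in each of the 3 cultures than in strips, by a median log2 fold change of -2.07 in P plate, -1.95 in M plate and -2.07 in M scaffold. The medians over all tested genes were -0.03, -0.01 and -0.02. Each of the 16 passed, in each of the 3 comparisons, edgeR's quasi-likelihood test with Benjamini-Hochberg adjustment, and no mitosis gene rose. Over all genes 32.7% fell in P plate against strips, 28.4% in M plate and 27.6% in M scaffold. No library of a culture reached the lowest strip library in any of the 16 genes, as was the case for 36.1%, 37.0% and 34.9% of all genes in the lower direction. In bulk RNA, fewer cycling cells and less of these RNAs per cell cannot be told apart.

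**Figure D1:**
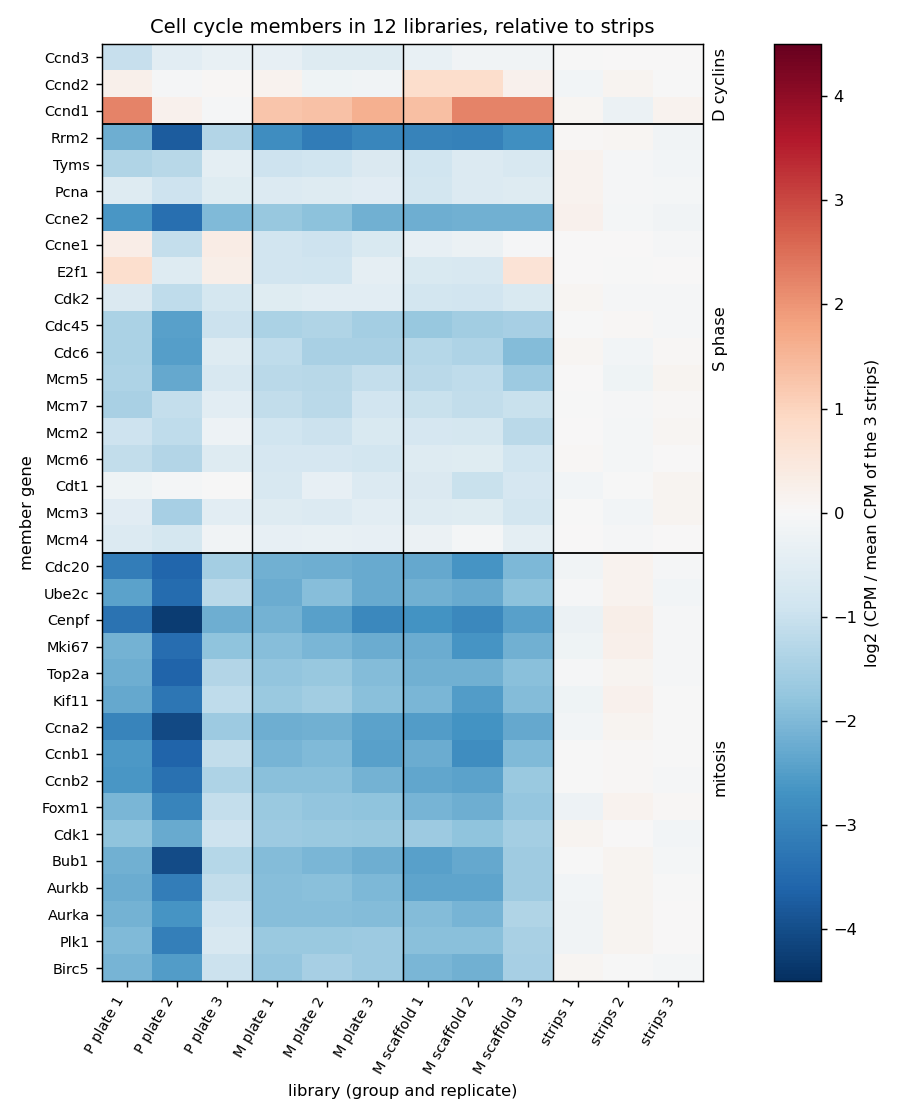
Level of each of the 35 members in each of the 12 libraries, as log2 CPM minus the mean of the 3 strip libraries, with members in rows ordered by role and libraries in columns. The mitosis rows are below strips in all 9 culture libraries, with P plate replicate 2 the lowest of its group, and Ccnd1 and Ccnd2 stand out above the rest.

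Mki67, whose protein coats mitotic chromosomes and is the common histological mark of cycling cells, was at 53.6, 21.5 and 67.2 CPM in P plate replicates 1 to 3, 62.6, 56.8 and 50.04 in M plate, 49.6, 37.2 and 52.0 in M scaffold, and 204, 276 and 223 in strips. The strip libraries lay above all 9 culture libraries, and the cultures overlapped each other. Mean levels were 234 ± 37.3 CPM in strips and 47.5 ± 23.4, 56.5 ± 6.26 and 46.3 ± 7.99 in P plate, M plate and M scaffold (SD, n = 3). Strips were thus 4.93-fold, 4.15-fold and 5.06-fold above these cultures, with adjusted p = 0.000205, 0.00058 and 0.000369 by edgeR.

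Top2a encodes the topoisomerase that untangles sister chromosomes. It was at 38.4, 14.5 and 70.0 CPM in P plate, 51.2, 54.3 and 45.6 in M plate, 39.5, 39.0 and 47.9 in M scaffold, and 170, 190 and 170 in strips. The highest culture library, P plate replicate 3, was still far below the lowest strip library. The log2 fold changes against strips were -2.11 ± 0.42 (SE), -1.81 ± 0.41 and -2.06 ± 0.41 in P plate, M plate and M scaffold, with edgeR adjusted p of 0.00129, 0.00379 and 0.00215. Cenpf, a kinetochore protein that builds up in G2, had the steepest fall of all members in P plate. Its levels were 8.81, 4.49 and 19.2 CPM in P plate, 20.3, 16.1 and 11.7 in M plate, 13.5, 11.7 and 16.3 in M scaffold, and 72.6, 106 and 84.5 in strips. Its fold in strips over the cultures was 8.1, 5.47 and 6.33. Kif11, the motor that pushes spindle poles apart, was 9.17 to 11.7 CPM in strips and 1.08 to 4.75 CPM in the cultures.

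Among the cyclins, Ccna2 serves both S phase and mitosis, and Ccnb1 and Ccnb2 activate Cdk1 at mitotic entry. Ccna2 was at 11.8, 5.53 and 29.8 CPM in P plate, 19.9, 20.5 and 17.2 in M plate, 15.9, 14.1 and 18.7 in M scaffold, and 83.6, 101 and 90.5 in strips. Strips held 5.83-fold, 4.78-fold and 5.63-fold more, and no culture library came near them. Ccnb2 was at 7.66, 4.58 and 18.2 CPM in P plate, 12.8, 12.7 and 10.9 in M plate, 9.22, 8.79 and 14.9 in M scaffold, and 47.0, 48.8 and 45.4 in strips. Ccnb1 was at 2.08, 1.05 and 5.90 CPM in P plate, 2.95, 3.20 and 2.33 in M plate, 2.67, 1.83 and 3.20 in M scaffold, and 12.3, 13.1 and 12.4 in strips. For both B cyclins the strips varied little and the P plate libraries varied most. The log2 fold changes of Ccnb2 against strips were -2.22 ± 0.42, -1.96 ± 0.41 and -2.10 ± 0.41, and those of Ccnb1 were -2.07 ± 0.50, -2.16 ± 0.50 and -2.28 ± 0.50 (SE).

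Cdk1, the mitotic kinase itself, fell least of the 16 in P plate, at -1.56 ± 0.27 on the log2 scale, with strips 2.95-fold, 3.19-fold and 3.17-fold above P plate, M plate and M scaffold. Foxm1, a factor that switches on mitotic genes, was at 13.2, 6.98 and 26.4 CPM in P plate, 17.1, 15.9 and 15.8 in M plate, 12.9, 12.1 and 16.6 in M scaffold, and 46.6, 61.6 and 57.0 in strips. Within P plate its libraries ranked in the same order as those of Mki67. Strips were 3.55-fold, 3.39-fold and 3.97-fold higher for Foxm1, with edgeR adjusted p of 0.0016, 0.00254 and 0.00153.

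Of the mitotic kinases and their partners, Bub1 guards the spindle checkpoint and Aurkb is the kinase of the chromosomal passenger complex. Bub1 was at 5.61, 1.57 and 10.3 CPM in P plate, 6.59, 6.04 and 5.46 in M plate, 4.67, 5.13 and 8.29 in M scaffold, and 24.9, 27.4 and 23.6 in strips. Aurkb was at 6.57, 3.57 and 14.3 CPM in P plate, 8.05, 8.37 and 7.61 in M plate, 5.93, 5.90 and 10.2 in M scaffold, and 28.3, 33.2 and 30.7 in strips. Strips were highest for both, and the spread within a group was widest in P plate. The fold in strips over the cultures was 4.34, 4.2 and 4.17 for Bub1 and 3.78, 3.84 and 4.17 for Aurkb. Aurka, which matures the spindle poles, was 3.17-fold to 3.79-fold higher in strips. Plk1, a kinase needed from mitotic entry to exit, fell by 1.62, 1.66 and 1.72 on the log2 scale in P plate, M plate and M scaffold. Birc5 (survivin), the partner of Aurkb, fell by 1.70, 1.62 and 1.87.

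Cdc20 activates the anaphase promoting complex and Ube2c is the ubiquitin-conjugating enzyme that works with it. Cdc20 was at 6.71, 4.89 and 20.4 CPM in P plate, 13.2, 12.8 and 12.01 in M plate, 11.7, 9.32 and 14.4 in M scaffold, and 52.6, 65.4 and 56.9 in strips. Ube2c was at 7.66, 3.69 and 17.7 CPM in P plate, 8.68, 10.8 and 8.37 in M plate, 9.16, 8.54 and 11.3 in M scaffold, and 39.7, 45.2 and 37.3 in strips. Neither gene had a culture library that overlapped the strips. The fold in strips was 5.46, 4.61 and 4.93 for Cdc20 and 4.21, 4.39 and 4.21 for Ube2c. Of the Ube2c exon bases, 22.8% overlap Tnnc2 on the other strand, and of those of Ccna2, 12.5% overlap Exosc9, so reads there cannot be told apart without strand, which is not given. Ccnb1 and Ccnb2 have named processed pseudogenes, which makes their counts less certain.

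Most S phase genes also fell against strips: 13 of 16 in P plate, 14 in M plate and 13 in M scaffold. None rose by edgeR, DESeq2 or limma-voom or at an unadjusted edgeR p under 0.05. The median log2 fold changes of the S phase genes were -0.89, -0.82 and -0.79, smaller in size than the medians of the mitosis genes. Single genes did not all follow: in M plate and M scaffold Rrm2 fell further than any mitosis gene. The difference in size between the S phase and mitosis genes was not tested. Over all genes 32.7% fell in P plate against strips, 28.4% in M plate and 27.6% in M scaffold. In the other direction, 30.5%, 26.5% and 24.5% of all genes rose.

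At entry into S phase, Ccne2, an E cyclin, was at 3.04, 1.75 and 4.72 CPM in P plate, 5.70, 5.13 and 4.12 in M plate, 4.02, 4.10 and 4.11 in M scaffold, and 21.3, 17.5 and 16.8 in strips. The cultures stayed well below the strips, which were 5.84-fold, 3.72-fold and 4.54-fold higher, with edgeR adjusted p of 4.84e-05, 0.000407 and 0.000256. Its partner kinase Cdk2 was at 29.8, 21.4 and 27.4 CPM in P plate, 32.3, 33.9 and 33.5 in M plate, 26.6, 25.5 and 29.3 in M scaffold, and 49.8, 45.1 and 45.6 in strips. Cdk2 fell by 0.84, 0.50 and 0.79 on the log2 scale in P plate, M plate and M scaffold. For Ccne2, 17.4% of the exon bases overlap Ints8 on the other strand.

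The paralog Ccne1 did not follow Ccne2. Its levels were 14.7, 5.59 and 15.2 CPM in P plate, 6.50, 6.24 and 7.34 in M plate, 9.16, 9.85 and 11.6 in M scaffold, and 12.2, 12.1 and 11.4 in strips. P plate libraries lay on both sides of the strips, and M plate libraries below them. Only in M plate did the edgeR test call Ccne1 lower than strips (-0.83 ± 0.30, adjusted p = 0.0382). The call was lost when any 1 of the 6 libraries was left out (adjusted p from 0.063 to 0.0996), in fits that still held P plate. On the 6 compared libraries alone it was kept. In P plate the difference was -0.01 ± 0.30 (adjusted p = 0.981) and in M scaffold -0.22 ± 0.30 (adjusted p = 0.56).

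E2f1 encodes the activator of many S phase genes. It was at 45.1, 17.9 and 31.6 CPM in P plate, 14.6, 14.2 and 19.8 in M plate, 16.3, 15.97 and 40.1 in M scaffold, and 26.6, 25.9 and 27.0 in strips. In P plate and M scaffold the libraries lay on both sides of the strips. All 3 M plate libraries lay below the strips. In the fit to all 12 libraries none of the 3 differences from strips passed the edgeR test (0.25 ± 0.39, -0.71 ± 0.39 and -0.13 ± 0.39, adjusted p = 0.59, 0.144 and 0.797). On the 6 compared libraries alone the M plate difference passed (-0.69, adjusted p = 0.00293).

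Of the licensing and helicase genes, Cdc45, which joins the MCM ring in the active helicase, was at 5.20, 2.58 and 7.14 CPM in P plate, 5.24, 5.53 and 4.86 in M plate, 4.33, 4.72 and 5.02 in M scaffold, and 13.9, 14.6 and 13.6 in strips. Cdc6, which loads the ring on origins, was at 2.60, 1.23 and 4.59 CPM in P plate, 3.09, 2.54 and 2.50 in M plate, 2.83, 2.64 and 1.79 in M scaffold, and 7.26, 6.30 and 7.14 in strips. All culture libraries were below the strips for both genes. The log2 fold changes were -1.50 ± 0.29, -1.43 ± 0.29 and -1.58 ± 0.29 for Cdc45 and -1.30 ± 0.38, -1.35 ± 0.38 and -1.52 ± 0.39 for Cdc6.

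Among the 6 MCM subunits Mcm5 fell most. It was at 18.3, 9.62 and 29.0 CPM in P plate, 20.3, 19.9 and 22.4 in M plate, 20.7, 21.6 and 15.4 in M scaffold, and 48.3, 42.1 and 52.2 in strips, which were 2.51-fold, 2.28-fold and 2.47-fold higher. Strips did not overlap any culture. Mcm4 differed least: it was 43.8 to 46.7 CPM in strips and 26.5 to 43.0 CPM in the cultures, with log2 fold changes of -0.49, -0.36 and -0.26 in P plate, M plate and M scaffold. The edgeR adjusted p for Mcm4 was 0.0147, 0.061 and 0.171, so that edgeR called only the P plate difference. In M plate Mcm4 was called lower by DESeq2 (adjusted p = 0.033), limma-voom (0.0467) and edgeR with other scalings or on the 6 compared libraries alone (0.00289). The other subunits Mcm2, Mcm3, Mcm6 and Mcm7 fell in all 3 comparisons with strips, by 0.56 to 1.05 on the log2 scale. The Mcm3 call in M plate (adjusted p = 0.0492) was lost when any 1 of the 6 libraries was left out (0.0598 to 0.114), and that in M scaffold without M scaffold replicate 1 (0.0578) or 3 (0.0995) or strips replicate 1 (0.0617) or 3 (0.0817). These fits still held the P plate libraries, and on the 6 compared libraries alone the Mcm3 call in M plate was kept. Of the Mcm7 exon bases, 12.6% are shared with other genes.

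Cdt1, the other loading factor, differed from the rest of the licensing genes. It was at 21.4, 22.8 and 24.3 CPM in P plate, 15.0, 18.8 and 15.98 in M plate, 15.6, 12.3 and 14.4 in M scaffold, and 22.7, 24.1 and 26.8 in strips. P plate overlapped the strips (-0.10 ± 0.13, adjusted p = 0.512), while both groups in M medium lay below them. Cdt1 fell in M plate (-0.57 ± 0.13, adjusted p = 0.004) and M scaffold (-0.80 ± 0.13, adjusted p = 0.000673).

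Rrm2, the regulated subunit of ribonucleotide reductase, had the steepest fall of all 35 members in M plate and in M scaffold. It was at 13.3, 4.61 and 24.7 CPM in P plate, 8.83, 6.95 and 8.02 in M plate, 7.71, 7.55 and 9.03 in M scaffold, and 63.4, 66.3 and 55.7 in strips. Strips were 4.34-fold above P plate, 7.79-fold above M plate and 7.62-fold above M scaffold, and overlapped no culture. Tyms, which makes thymidylate, was at 12.3, 13.2 and 23.4 CPM in P plate, 16.4, 17.2 and 20.1 in M plate, 16.8, 20.7 and 19.2 in M scaffold, and 35.5, 30.5 and 28.9 in strips. Pcna, the sliding clamp that also serves in DNA repair, was at 32.2, 25.2 and 32.4 CPM in P plate, 30.9, 31.8 and 33.5 in M plate, 26.6, 30.8 and 31.7 in M scaffold, and 52.6, 45.5 and 44.7 in strips. Its libraries were close together within each group and apart from strips, by 1.59-fold, 1.48-fold and 1.6-fold, with edgeR adjusted p of 0.000828, 0.00287 and 0.00123. Tyms fell by 0.96, 0.82 and 0.74 on the log2 scale, and the M scaffold call was lost without M scaffold replicate 1 (adjusted p = 0.061) or strips replicate 1 (0.0586). Both Tyms and Pcna have named processed pseudogenes.

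**Figure D2:**
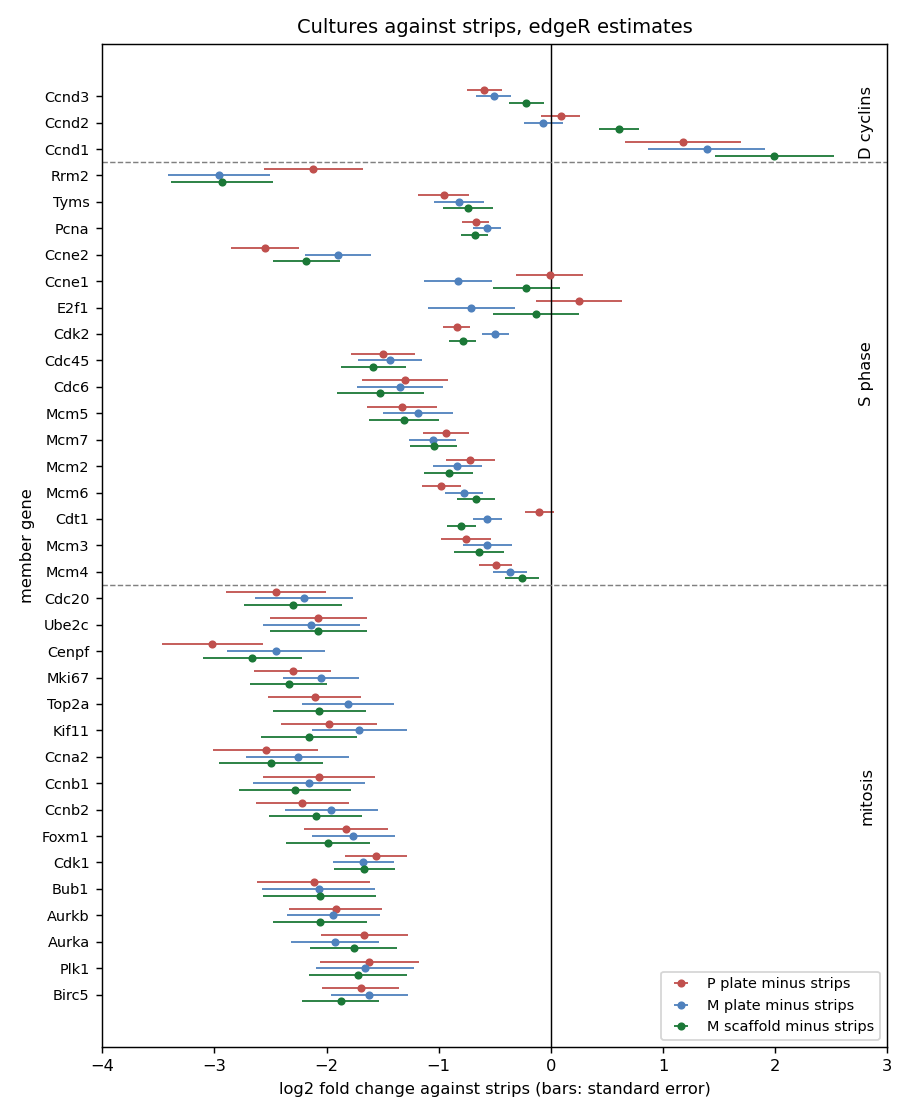
Log2 fold change of each member in P plate, M plate and M scaffold against strips, as points with bars of 1 standard error from edgeR, in rows by role, where 0 marks equal levels. The mitosis members lie between -3.02 and -1.56, most S phase members lie nearer to 0, and Ccnd1 and Ccnd2 are on the positive side in M scaffold.

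The D cyclins, which start the G1 response to growth signals, did not move as one: Ccnd1 and Ccnd2 rose in some cultures, and Ccnd3 fell in others. Ccnd1 was at 232, 56.4 and 47.6 CPM in P plate, 116, 122 and 150 in M plate, 125, 234 and 231 in M scaffold, and 52.0, 41.7 and 54.5 in strips. All libraries in M medium lay above the strips, while P plate replicate 3 lay inside their range and P plate replicate 1 was the highest of its group and well above them. Ccnd1 rose 3.98-fold in M scaffold (edgeR adjusted p = 0.00965) and 2.62-fold in M plate (adjusted p = 0.0427). The M plate call was lost when any 1 of the 6 libraries was left out, with adjusted p from 0.0688 to 0.122. Those fits still held the P plate libraries, and on the 6 compared libraries alone the call was kept. In P plate the log2 difference of 1.18 ± 0.52 did not pass (adjusted p = 0.0686). It passed by DESeq2 (1.18, adjusted p = 0.0423), without P plate replicate 2 (1.49, adjusted p = 0.0294) and without replicate 3 (1.50, adjusted p = 0.0211). Without replicate 1 it was 0.034 (edgeR adjusted p = 0.915). That library stood apart in more than 1 marker sum. Its macrophage sum was 16388 CPM, and its mesothelial sum was 282 CPM, against 2923 and 2225 in P plate replicates 2 and 3. The part of these cells in the Ccnd1 level was not tested. Of the Ccnd1 exon bases, 23.4% overlap the gene annotated as LTO1 on the other strand.

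Ccnd2 was at 433, 360 and 383 CPM in P plate, 407, 320 and 329 in M plate, 632, 637 and 418 in M scaffold, and 337, 401 and 369 in strips. Only the M scaffold libraries all lay above the strips, by 1.52-fold (edgeR adjusted p = 0.0149). This call was lost without M scaffold replicate 1 (adjusted p = 0.0504) or 2 (0.0623) or strips replicate 1 (0.0635). Members wholly above the strips were thus Ccnd1 in M plate (36.2% of all genes) and Ccnd1 and Ccnd2 in M scaffold (30.3%), and none in P plate (31.7%). Ccnd3 was at 82.7, 124 and 135 CPM in P plate, 132, 115 and 116 in M plate, 137, 153 and 153 in M scaffold, and 169, 173 and 173 in strips. It was highest in strips and fell in P plate (-0.59 ± 0.16, adjusted p = 0.00723) and M plate (-0.51 ± 0.16, adjusted p = 0.0183), where the call was lost without M plate replicate 2 (0.0597) or 3 (0.0614). In M scaffold its difference was -0.22 ± 0.16 (adjusted p = 0.261). Ccnd3 has a named processed pseudogene.

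**Figure D3:**
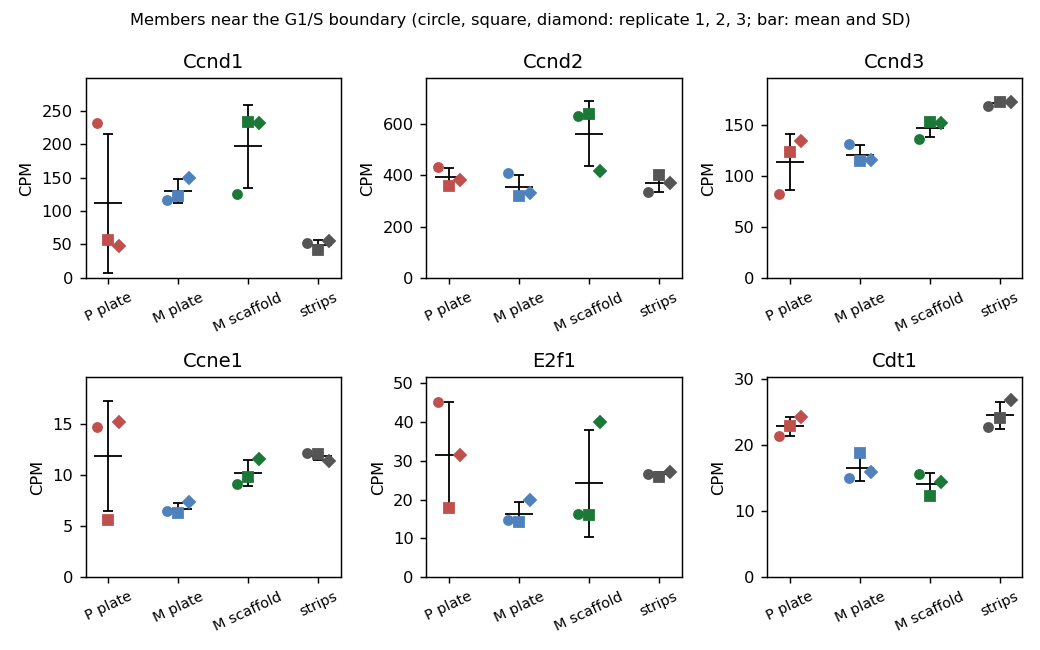
CPM of Ccnd1, Ccnd2, Ccnd3, Ccne1, E2f1 and Cdt1 in each library by group, each panel on its own linear axis from 0, with points for libraries and a bar for the mean ± SD of 3. Ccnd1 is above strips in all libraries in M medium, and E2f1 and Ccne1 in P plate spread to both sides of the strips.

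Per kilobase of exon, Ccnd2 was the member with the highest mean level in all 4 groups, at 41.7 ± 3.98 RPKM in P plate, 37.5 ± 5.09 in M plate, 59.7 ± 13.3 in M scaffold and 39.2 ± 3.44 in strips (SD, n = 3). In strips it was followed by Cdc20 at 31.2 ± 3.47, Ccnb2 at 30.8 ± 1.11 and Mki67 at 23.3 ± 3.71 RPKM. The neighbours Cdc20 and Ccnb2 did not differ beyond their spread. In the cultures these 3 mitosis genes were at 4.60 to 7.93 RPKM, below the mean Pcna level of 12.4 to 13.4 RPKM. The lowest member in strips was Cdc6 at 1.32 ± 0.10 RPKM, with Kif11 next at 1.39 ± 0.171, which overlap in their spread. In the cultures Kif11 was the lowest, at 0.310 to 0.425 RPKM. These values use the union of annotated exons, so that exons a tissue does not use lower them.

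Within P plate the mitosis genes ranked the libraries in the same order. Replicate 2 was lowest and replicate 3 highest in 16 of 16, with a median ratio of highest to lowest library of 4.23 and a range of 2.54 to 6.59. The median ratio over all genes in P plate was 1.41. Among S phase genes replicate 2 was lowest in 13 of 16, replicate 3 highest in 14 of 16, and the median ratio was 1.99. The summed CPM of the 16 mitosis genes was 205, 101 and 388 in P plate replicates 1 to 3, against 947, 1137 and 987 in strips. The smooth muscle marker sum in the same P plate libraries was 7983, 4898 and 10518 CPM, and the macrophage sum 16388, 3000 and 1867 CPM; their part in the spread was not tested.

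The other groups were more even. In M plate the mitosis sum was 274, 269 and 236 CPM, with replicate 3 lowest in 14 of 16. The median ratio of highest to lowest library was 1.19 for mitosis and 1.20 for S phase genes, beside 1.18 over all genes. In M scaffold the median ratio was 1.44 for mitosis and 1.25 for S phase genes, beside 1.31 over all genes. The M scaffold mitosis sum was 222, 196 and 271 CPM, with replicate 3 highest in 16 of 16 and replicate 2 lowest in 15 of 16. That replicate 3 also had the lowest endothelial marker sum of its group (158 CPM, against 1130 and 733), the highest glial sum (462, against 192 and 236) and the highest macrophage sum (3386, against 1599 and 1394). In strips, replicate 2 was highest in 14 of 16 mitosis genes. This library had an intestinal epithelial marker sum of 208 CPM, against 94.96 and 80.5 CPM in the other strip libraries. The part of these marker sums in the orders was not tested.

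Set against the S phase genes of the same library, the mitosis genes stood lower in each culture library than in each strip library. The mean log2 CPM of the mitosis genes minus that of the S phase genes was 0.31, 0.62 and 0.41 in strips replicates 1 to 3. It was -0.97, -1.29 and -0.27 in P plate, -0.42, -0.38 and -0.65 in M plate and -0.69, -0.88 and -0.33 in M scaffold. Strips did not overlap any culture. The summed CPM of the S phase genes was 646, 602 and 630 in strips and 254 to 443 in the cultures.

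**Figure D4:**
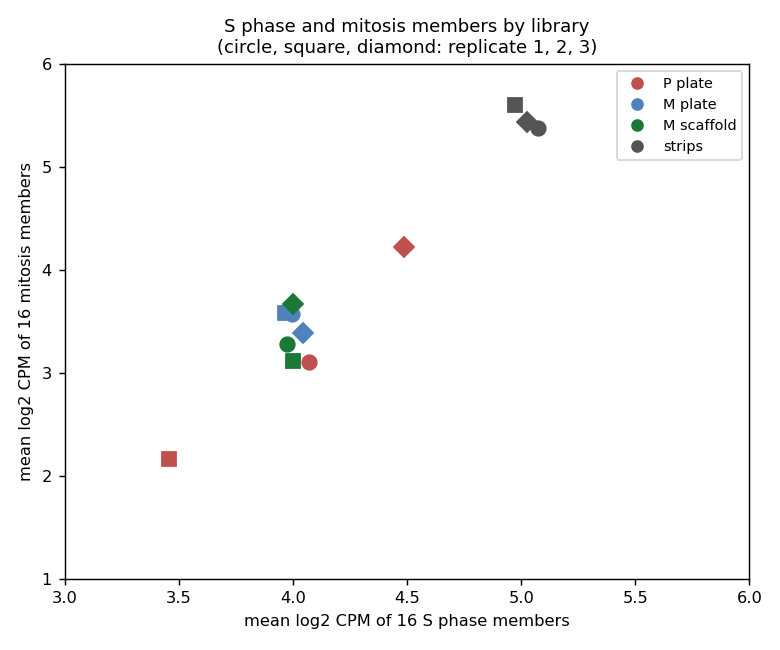
Mean log2 CPM of the 16 S phase members (horizontal) against that of the 16 mitosis members (vertical), 1 point per library, by group. The 3 strip libraries stand at the upper right (S phase 4.97 to 5.07, mitosis 5.38 to 5.60), and the P plate libraries spread from 3.46 and 2.17 to 4.49 and 4.22.

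Markers of several other cell types, though not of all, moved with the comparison against strips, beside the smooth muscle sum. The summed CPM of fibroblast markers was 4048 to 5036 in strips and 8516 to 23778 in the cultures. Of these 5 markers Dpt alone fell in P plate, to 0.255 to 0.903 CPM against 46.0 to 146 in strips. The macrophage sum was 121 to 164 CPM in strips and 1394 to 16388 in the cultures. Of its 5 markers Csf1r alone overlapped the strips, in M scaffold (53.9 to 117 against 67.2 to 75.1 CPM). The epithelial sum was 80.5 to 208 CPM in strips against 8.04 to 93.9. Within it Krt8 was at 51.4 to 63.7 CPM in strips and 5.36 to 92.1 in the cultures. Epcam was at 12.1 to 64.1 CPM in strips and at most 0.44 in the cultures. Neuron markers were at 618 to 876 CPM in strips against 24.8 to 260 in the cultures, and markers of interstitial cells of Cajal at 325 to 414 against 16.6 to 119. For endothelial markers the range was 90.5 to 149 CPM in strips. P plate had 12.9 to 26.1 CPM of them, M plate 1211 to 1536 and M scaffold 158 to 1130. Mesothelial markers summed to 2237 to 2621 CPM in strips and 282 to 2923 in P plate. They were at 1611 to 2032 CPM in M plate and 817 to 1317 in M scaffold. Glial markers summed to 117 to 148 CPM in strips and 13.7 to 27.6 in P plate. Their sum was 98.6 to 124 CPM in M plate and 192 to 462 in M scaffold. Of the 5 lymphocyte markers, 1 passed the filter, and their sum was 0.708 to 0.903 CPM in strips and at most 0.173 CPM in the cultures. At 0 in all P plate libraries were 3 lymphocyte markers and 1 epithelial marker, and in M plate 2 lymphocyte markers. The part of these cells in the lower mitosis and S phase levels was not tested. Without strips replicate 2, the strip library with most epithelial signal, 30 members were called lower in P plate, 29 in M plate and 29 in M scaffold, against 30, 31 and 29 with it.

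M plate was set against P plate to compare the media on plates. Of the 35 members only Cdt1 changed, falling by 0.46 ± 0.13 on the log2 scale (edgeR adjusted p = 0.0256), when 10.6% of all genes fell and 14.3% rose. Its 3 M plate libraries (15.0 to 18.8 CPM) lay below the 3 P plate libraries (21.4 to 24.3 CPM). The groups did not overlap in 1 member in each direction, Cdk2 higher and Cdt1 lower in M plate, against 22.6% and 19.3% of all genes. No member rose by edgeR or limma-voom, 2 did at an unadjusted p under 0.05, and 1 did by DESeq2. Beside this, the summed endothelial markers were at 12.9 to 26.1 CPM in P plate and 1211 to 1536 in M plate, and the glial markers at 13.7 to 27.6 and 98.6 to 124 CPM, with 4 of 4 called higher in both lists. Their part in these values was not tested. The median log2 fold change was 0.08 for the S phase and 0.07 for the mitosis genes, beside -0.0044 over all genes.

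For Mki67 the M plate difference from P plate was 0.25 ± 0.33 (edgeR adjusted p = 0.615), with a 95% interval from -0.50 to 1.00. Cdk2 (0.34 ± 0.12, adjusted p = 0.0634) and Ccne2 (0.65 ± 0.29, adjusted p = 0.13) were higher in mean without passing by edgeR, and DESeq2 called Cdk2 (adjusted p = 0.045). Ccne1 (-0.82 ± 0.30, adjusted p = 0.0724), E2f1 (-0.96 ± 0.39, adjusted p = 0.0981) and Rrm2 (-0.84 ± 0.43, adjusted p = 0.18) were lower in mean without passing by edgeR, and DESeq2 called Ccne1 (adjusted p = 0.039). The outcome depended on single P plate libraries. Without replicate 3, 8 members were called higher in M plate (Ccna2, Ccnb2, Ccne2, Cdc20, Cenpf, Kif11, Mcm6 and Tyms). Without replicate 2, 4 were called lower (Cdt1, Ccne1, Rrm2 and E2f1), and without replicate 1 Ccnd1 (1.32, adjusted p = 0.00475, from 0.21 ± 0.51 and 0.799 with it) and Cdk2 were called higher. The Cdt1 call was lost without P plate replicate 3 (adjusted p = 0.0786), M plate replicate 1 (0.104) or M plate replicate 3 (0.0815).

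The scaffold was compared with the plate in the same M medium. No member was called in either direction by edgeR, when 1.53% of all genes rose and 1.64% fell. At an unadjusted p under 0.05 Ccnd2 was higher and Cdk2 lower on the scaffold, and both DESeq2 and limma-voom called Ccnd2 higher and no member lower. The Ccnd2 difference was 0.67 ± 0.18 (edgeR adjusted p = 0.0652), with a 95% interval from 0.27 to 1.08. All 3 scaffold libraries (418 to 637 CPM) lay above the 3 plate libraries (320 to 407 CPM), as was also so for Ccnd3 and Ccne1, against 15.9% of all genes. Cdk2, Ccne2 and Kif11 lay below without overlap, against 17.4% of all genes. It passed without M scaffold replicate 3 (0.85, adjusted p = 0.0334), by DESeq2 (0.69, adjusted p = 0.00719) and by limma-voom (0.69, adjusted p = 0.0425).

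Libraries of the same replicate number deviated together in these M medium groups. With the replicate number as a block within these 6 libraries, 787 of 16354 genes rose on the scaffold and 931 fell by edgeR. On the same libraries without the block 455 rose and 613 fell. Under the block Ccne1 was called higher on the scaffold (0.62, edgeR adjusted p = 0.0492). The main fit without a block gave 0.61 ± 0.30 for Ccne1 (adjusted p = 0.276). Its scaffold libraries (9.16 to 11.6 CPM) lay above the plate libraries (6.24 to 7.34 CPM). Mki67 differed by -0.29 ± 0.33 (adjusted p = 0.659), with a 95% interval from -1.04 to 0.47, and Ccnd1 by 0.60 ± 0.51 (adjusted p = 0.536). The median log2 fold change was -0.08 for the S phase and -0.13 for the mitosis genes.

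M scaffold against P plate differs in medium and support together. Cdt1 again was the only member to change, falling by 0.70 ± 0.13 on the log2 scale (edgeR adjusted p = 0.00309; 0.105 with the replicate number as a block), when 9.61% of all genes fell and 15.1% rose. Its scaffold libraries (12.3 to 15.6 CPM) did not overlap P plate, and those of Ccnd3 lay above it, against 15.0% and 19.0% of all genes without overlap in the lower and higher direction. No member rose by edgeR, 2 did at an unadjusted p under 0.05, and 1 each did by DESeq2 and limma-voom. Both comparisons with P plate share those libraries. Ccnd2 differed by 0.52 ± 0.18 (adjusted p = 0.0549), Ccnd3 by 0.37 ± 0.16 (adjusted p = 0.108) and Mki67 by -0.04 ± 0.33 (adjusted p = 0.954). Without P plate replicate 3, 9 members were called higher, 4 of them mitosis genes (Ccna2, Ccnb2, Cdc20 and Cenpf), 4 of them S phase genes (Ccne2, Mcm4, Mcm6 and Tyms), and Ccnd3. Without P plate replicate 1 Ccnd1 was called higher (1.95, adjusted p = 0.00051, from 0.81 ± 0.51 and 0.275 with it), as was Ccnd2. Without P plate replicate 2, 3 were called lower (Cdt1, Ccne1 and Rrm2), and without M scaffold replicate 3 Ccnd2 was called higher (0.70, adjusted p = 0.00752).

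Beyond the members, a longer list of 40 mitosis genes and one of 36 S phase genes were measured, and all passed the filter. Of the 40, 39 fell in each culture against strips (32.7%, 28.4% and 27.6% of all genes), with medians of -1.85, -1.82 and -1.95 in P plate, M plate and M scaffold. The largest falls were those of Spc24, a kinetochore subunit (-2.92 ± 0.52, -2.97 ± 0.52 and -2.71 ± 0.51), and Cdca3, a mitotic entry factor (-2.58 ± 0.37, -2.68 ± 0.37 and -2.79 ± 0.37). The exception was Pttg1 (securin), which holds back sister separation. It was at 23.4 CPM in M scaffold and 18.4 CPM in strips, a rise of 0.35 ± 0.11 (edgeR adjusted p = 0.0231). Of the 36 S phase genes, 30, 31 and 28 fell, against the same shares of all genes. Among the largest falls were those of Prim1, a primase subunit (log2 fold changes of -2.56, -2.42 and -2.47), Cdc7, the kinase that fires origins (-2.69, -1.97 and -2.11), and Tk1, thymidine kinase (-2.08, -1.84 and -2.16). Rrm1, the partner of Rrm2, was the only one of the 36 to rise, in P plate (171 against 105 CPM, 0.70 ± 0.21, adjusted p = 0.0152).

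Between M plate and P plate, 2 of these 76 genes rose and none fell by edgeR, when 14.3% of all genes rose and 10.6% fell. They were Dut, which clears dUTP (0.84 ± 0.26, edgeR adjusted p = 0.0413), and Cdc7 (0.72 ± 0.21, adjusted p = 0.0328). None of the 76 was called by edgeR in M scaffold against M plate, where 1.53% of all genes rose and 1.64% fell, or in M scaffold against P plate, where 15.1% rose and 9.61% fell.

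The 20 G1 kinases, pocket proteins and E2F factors went both ways against strips. In P plate 6 rose and 5 fell, in M plate 5 and 6, and in M scaffold 6 and 6. These shares of 20 are near those of all genes (30.5% and 32.7%, 26.5% and 28.4%, 24.5% and 27.6%), so the counts are no result about the list. Among those that rose were E2f3, an activator (1.41 ± 0.13, 0.90 ± 0.13 and 0.85 ± 0.13), and Cdk6, a partner of the D cyclins (1.37 ± 0.14, 0.59 ± 0.14 and 0.75 ± 0.14). The repressors E2f7 and E2f8 fell in all 3, E2f7 by 2.01, 1.18 and 1.97 and E2f8 by 1.94, 1.29 and 1.89 on the log2 scale. Between the scaffold and the plate in M medium only Myc changed, from 29.0 to 52.2 CPM (0.84 ± 0.15, edgeR adjusted p = 0.0255). Of all genes 1.53% rose and 1.64% fell there. Against P plate, M plate had less Cdk6 and E2f3 and more E2f2, an activator (1.07 ± 0.20). In that comparison 1 of the 20 rose and 2 fell, beside 14.3% and 10.6% of all genes. In M scaffold against P plate 1 rose and 3 fell, beside 15.1% and 9.61%. Whether these counts differ from the shares was not tested.

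Of 7 inhibitors of cyclin-dependent kinases, 3 rose and 4 fell in P plate against strips, and 3 rose and 3 fell in M plate and in M scaffold. Their median log2 fold changes were -0.88, -0.64 and 0.94. Over all genes 30.5% rose and 32.7% fell in P plate, 26.5% and 28.4% in M plate, and 24.5% and 27.6% in M scaffold. Whether counts of 7 differ from these shares was not tested. The inhibitors that rose in all 3 were Cdkn1a (p21), Cdkn2a and Cdkn2b, and Cdkn1b, Cdkn2c and Cdkn2d fell in all 3. Mean Cdkn1a was 25.04 CPM in strips and 355, 119 and 260 CPM in P plate, M plate and M scaffold.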

How the data were processed

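The deposited table holds raw read counts per Ensembl gene, 1 column per sample; per the submitters' processing notes reads were aligned with STAR 2.6.0, and GRCm38 and mm10 are named. The counting program, annotation, strand setting and the joining of the technical replicates are not stated in these sources. Summary entries naming no gene held 43.4% to 51.6% of a column, mostly reads mapping to several places (38.7% to 46.7%), and were left out. From the deposited counts, symbols and coordinates were taken from GENCODE M21 (52403 of 52550 identifiers matched), and RPKM uses the union of exons there.

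All 12 libraries were fitted in edgeR 4.0.16 (R 4.3.3) with filterByExpr, TMM scaling and the group as the only term (8 residual degrees of freedom). Each of 6 comparisons used the quasi-likelihood F test. Calls are at a Benjamini-Hochberg adjusted p under 0.05 over 17700 genes. Standard errors come from the F statistic, and intervals on folds are 95%. The scripts were tested on simulated data.

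Alternatives were median-of-ratios and upper-quartile scaling, no low-count filter, the 6 compared libraries alone, the replicate number as a block, leaving out each library, DESeq2 1.42.0 and limma-voom (limma 3.58.1). The labels number replicates 1 to 3 in every group. Deviations from group means correlated between same-numbered M scaffold and M plate libraries (r = 0.29, 0.196 and 0.304 across genes). The labels state no pairing, and the main fit has no block for this comparison either. The fit with a block is given beside it. For the other comparisons not every r passed 0.1.

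The members, gene lists and motif words were chosen with earlier results of these data known. Values per library are given for Mki67, Top2a, Pcna, the D cyclins, E2f1 and Foxm1 and for up to 2 called members with the largest change in each role and comparison; Mcm4, Cdk1 and others outside that rule were named after their values were seen. Of the further lists up to 3 called genes per direction are named, of which some are given. No interval covers more than these samples, and the floor of 3 counts covers counting error alone, as the reads carry no molecular identifiers.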

Additional observations from a re-analysis of the deposited data

How the results depend on the processing

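Of the calls against strips, 29 of 30 in P plate, 28 of 32 in M plate and 28 of 31 in M scaffold were kept under every alternative. Leaving out 1 library gave 30 to 30 members lower and 0 to 1 higher in P plate against strips, 28 to 29 and 0 to 0 in M plate, and 27 to 29 and 1 to 2 in M scaffold. It gave 0 to 4 lower and 0 to 8 higher for M plate against P plate, 0 to 0 and 0 to 1 for M scaffold against M plate, and 1 to 3 and 0 to 9 for M scaffold against P plate. DESeq2 called 1 member higher in P plate against strips, 1 higher and 2 lower in M plate against P plate, and 1 higher in each scaffold comparison with a plate; limma-voom also called 1 higher in both of the latter, and upper-quartile scaling 1 higher in M scaffold against P plate. Upper-quartile scaling left 0 members higher in M plate against strips. No low-count filter and the compared libraries alone each left 0 lower in M plate against P plate. The cause of these changes was not tested.

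With the replicate number as a block within the 6 compared libraries, 0 members were lower in M plate against P plate and in M scaffold against P plate, and 1 was higher in M scaffold against M plate. The lost call was Cdt1 both times, at -0.47 (adjusted p = 0.113) and -0.69 (0.105). This block also ended the Mcm4 call in P plate against strips (-0.55, 0.0512) and called Mcm4 (-0.35, 0.011) and E2f1 (-0.71, 0.00476) lower in M plate against strips. With the block in all 12 libraries, 0 were higher in M plate against strips. The numbers did not pair libraries outside the M medium groups (same-number r from -0.103 to 0.127), where only some libraries matched their own number best.

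Signs of differences that were not called turned as follows, and the cause was not tested. Mki67 in M plate against P plate was -0.10 without P plate replicate 2 (-0.10 to 0.59 over single libraries left out). Against strips, Ccne1 in P plate was 0.00075 with no filter and 0.33 without P plate replicate 2 (-0.27 to 0.33). Ccnd2 in P plate was -0.079 with upper-quartile scaling and -0.028 without P plate replicate 1 (-0.028 to 0.14). E2f1 in P plate was -0.14 without P plate replicate 1 (-0.14 to 0.53), and in M scaffold 0.090 and 0.08 without M scaffold replicates 1 and 2 (-0.71 to 0.090). Upper-quartile scaling moved the median of all genes against strips to -0.19, -0.16 and -0.16. It turned the split of higher and lower calls from 5390 and 5785 to 4291 and 6697 in P plate, from 4687 and 5025 to 3706 and 6067 in M plate, and from 4344 and 4884 to 3460 and 5852 in M scaffold. Depth did not limit the detection of any member, since each had counts in every library.

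With the longer E2F words TTTCCCGC, TTTCGCGC, TTTGCCGC and TTTGGCGC, 7 of 15 windows of S phase genes and 1 of 13 of mitosis genes held a match. Of all windows 2.27% did. With TTTGAA alone as the CHR word, 10 of 13 windows of mitosis genes and 2 of 15 of S phase genes did, against 17.9% of all windows.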
